A study of Mus musculus with 6 samples.

Results

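The insulin-like growth factor (IGF) family was followed through its ligands, its receptor and its binding proteins in gastrocnemius muscle of denervated mice. The members were 10 genes chosen by name, namely Igf1, Igf2, Igf1r, Igf2r, Igfbp2, Igfbp3, Igfbp4, Igfbp5, Igfbp6 and Igfbp7, and each was read from every probe set that the array's annotation gives to that gene alone. This gave 20 of the 45037 probe sets of the array and 8 of the 17097 genes that could be followed by name. Igf2r and Igfbp7 were not analysed here, because no probe set named either of them alone. The mice were male ICR mice, 7 weeks old when bought, and were acclimated for 1 week before the diets began. All were denervated on both sides, by removal of 5 mm of the sciatic nerve after 1 week on the diets, so that neither group shows innervated muscle. The MA group ate a diet with 0.27% maslinic acid (MA), a triterpene of olive peel, and the control group ate the diet without it, in each case until day 14 after surgery. Each group had 3 arrays. The labels and methods do not tell if the 3 arrays per group stem from separate mice. The p-values therefore measure the spread between arrays alone, and that spread may be technical.

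As background, IGF-1 and IGF-2 are secreted growth factors that bind the type 1 IGF receptor, a tyrosine kinase encoded by Igf1r. The receptor signals through IRS adaptors to PI3K, AKT and mTOR, which promote protein synthesis, and AKT holds back the FoxO factors that drive muscle protein loss. The binding proteins hold the ligands outside the cell and can lower or prolong their action, and proteases release the ligands again. In muscle the ligands come from fibers, myoblasts, macrophages and fibroblasts.

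Values are log2 RMA values, in which a difference of 1 is a doubling, and every difference is the MA group minus the control group. Rose and fell are used of probe sets with a limma p, adjusted over all 45037 probe sets, under 0.05. For the mean of a gene's probe sets, the limma p is from a separate fit and is adjusted over all 17097 genes. The highest control for nonspecific binding, leaving out 1 that stood at 7.11 or more, was 3.93 and is taken as the background. The medians of the arrays lay between 4.27 and 4.28, and across probe sets r was 0.9992 to 0.9997 within a group and 0.9934 to 0.9937 between groups. The hybridization controls, bacterial and phage transcripts, had a higher mean with MA at 18 of 18 probe sets. The median of these differences was 0.17 and the maximum 0.35, or 1.28-fold. Their part in the smaller differences was not tested. The muscle label fits the levels of the 8 fiber markers, which all lay far above the background. Tnnc2 and Acta1, of the troponin complex and the thin filament, were the brightest of these 8, at means of 12.62 to 12.64 and 12.49 to 12.62.

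Binding protein 4 fell in the MA group and binding protein 6 rose, and these were the largest changes of the family. Igfbp4 was 1.52-fold lower over the mean of its 6 probe sets and Igfbp6 1.38-fold higher. Igfbp5 rose by less, Igf1, Igf2 and Igf1r rose at some or all of their probe sets by small amounts, and Igfbp3 fell. Of the 20 probe sets 8 rose and 7 fell, and the test was not passed by the other 5. Among all probe sets 21.6% rose and 21.4% fell, 42.9% in all. Past a fold of 1.2, which the methods of the study used as a threshold, 2 rose and 5 fell, where 4.56% and 5.73% of all probe sets did so, 10.3% together. All 5 of these falls, and 6 of the 7 falls called, were at probe sets of Igfbp4. The counts of falls thus mostly count 1 gene repeatedly. Every MA array lay above every control array at 10 of the 20 and below at 8, where 27.5% and 26.4% of all probe sets did so, 53.9% together. The median difference was 0.06 over the 20 probe sets and 0.003 over all. In bulk tissue, fewer cells of a type and less RNA per cell cannot be told apart.

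**Figure D1:**
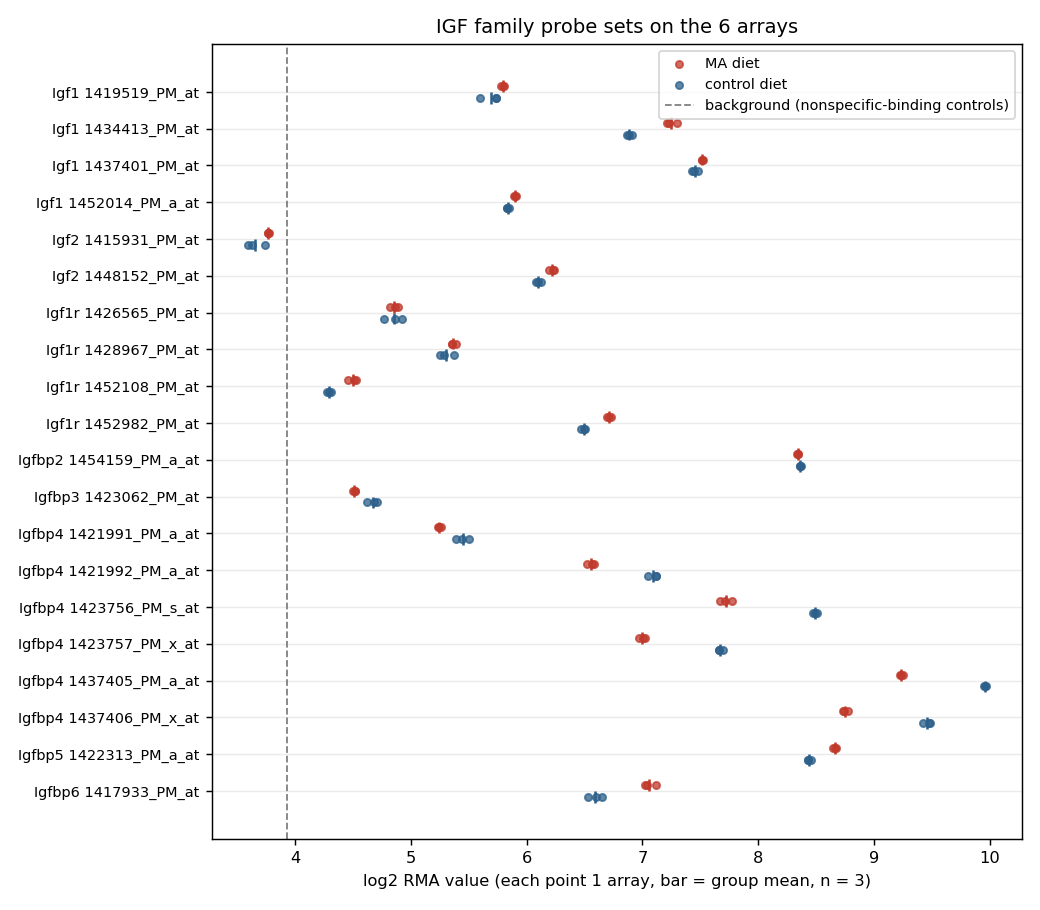
Log2 RMA value (horizontal axis) of each IGF family probe set on each of the 6 arrays, with red points for the MA group, blue points for the control group, a bar at the group mean and a dashed line at the background of 3.93. All 6 probe sets of Igfbp4 lie lower in the MA group, and Igfbp6 lies higher, at 7.02 to 7.11 against 6.53 to 6.65.

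Of the ligands, Igf1 encodes IGF-1, the growth factor that muscle makes for its own growth and repair. Its probe set 1434413_PM_at had log2 values of 7.21, 7.30 and 7.23 in the MA group and 6.88, 6.91 and 6.87 in the control group. The MA arrays all lay above the control arrays, and the difference was 0.36 (standard error 0.03, 95% interval 0.29 to 0.42), a 1.28-fold rise (limma, adjusted p = 2.25e-05). Among all probe sets, 2.68% rose by as much or more. This rise barely exceeds the maximum seen among the hybridization controls, at 0.359 against 0.354.

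The other 3 probe sets of Igf1 differed by less. The brightest, 1437401_PM_at, had 7.51, 7.51 and 7.53 in the MA group and 7.48, 7.43 and 7.45 in the control group, a difference of 0.06 (limma, adjusted p = 0.0593). The groups were apart by less than 0.1 on the log2 scale and did not overlap. Probe set 1452014_PM_a_at had 5.91, 5.90 and 5.89 against 5.83, 5.83 and 5.85, a rise of 0.07 (limma, adjusted p = 0.0327) whose call was lost when any 1 of the 6 arrays was left out (adjusted p = 0.052 to 0.093). Probe set 1419519_PM_at had 5.79, 5.78 and 5.80 against 5.60, 5.74 and 5.74, a difference of 0.10 (limma, adjusted p = 0.0653), in which control array 1 stood lowest. Without that array the difference was 0.05. All 4 probe sets were thus higher in every MA array than in any control array, and 2 of 4 rose. These shares were 27.5% and 21.6% over all probe sets.

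The 4 probe sets of Igf1 were designed from 4 different sequence records, and they did not agree on the size of the difference. Taken on the same array relative to the brightest probe set, 1434413_PM_at stood at -0.30, -0.21 and -0.30 in the MA group and at -0.60, -0.52 and -0.58 in the control group. The gap between the groups was 0.30, and the arrays did not overlap (exact permutation test, two-sided, p = 0.1, which is the lowest value possible with 3 arrays against 3, and 0.171 when adjusted over the 12 such pairs of the family). The same comparison gave 0.04 for 1419519_PM_at and 0.004 for 1452014_PM_a_at, and there the arrays overlapped (two-sided exact permutation test, p = 1 and p = 0.9). Averaged over the 4 probe sets, Igf1 stood at 6.61 ± 0.009 (SD, n = 3) with MA and 6.47 ± 0.016 (SD, n = 3) without, a 1.11-fold rise (difference 0.15, 95% interval 0.11 to 0.19, limma, adjusted p = 0.000294). Which exons or transcript forms each probe set reads was not analysed here.

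Igf2 encodes IGF-2, a ligand of fetal growth that is also made by differentiating myoblasts. Its probe set 1448152_PM_at had 6.19, 6.23 and 6.24 in the MA group and 6.12, 6.09 and 6.08 in the control group. The groups did not overlap, and the rise was 0.12 (standard error 0.02, limma, adjusted p = 0.00372). Its second probe set, 1415931_PM_at, lay under the background in both groups, at 3.76, 3.76 and 3.77 and at 3.59, 3.62 and 3.74. It passed the test (adjusted p = 0.0412, limma), but the call was lost without any 1 of 5 of the arrays, all but control array 3, as well as with the one-way test after Benjamini-Hochberg (adjusted p = 0.139) and with quantile normalization again (adjusted p = 0.055), and no fold is given for values under the background. Both probe sets come from 1 sequence record.

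Igf1r encodes the receptor through which both ligands act. Its brightest probe set, 1452982_PM_at, had 6.70, 6.73 and 6.71 in the MA group and 6.50, 6.51 and 6.47 in the control group, a rise of 0.22 (95% interval 0.17 to 0.27, limma, adjusted p = 9.08e-05). Probe set 1452108_PM_at had 4.46, 4.51 and 4.52 against 4.29, 4.27 and 4.31, a rise of 0.20 (limma, adjusted p = 0.000258). At both, the MA arrays lay above all control arrays. The other 2 overlapped between the groups and did not pass the test. Probe set 1428967_PM_at differed by 0.06 (95% interval -0.02 to 0.14, limma, adjusted p = 0.198), or 0.03 without control array 2 and 0.09 without control array 3, and 1426565_PM_at by 0.01 (95% interval -0.09 to 0.10, limma, adjusted p = 0.924).

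The 4 probe sets of Igf1r share 2 sequence records, and the split runs within each record. On the same arrays, 1426565_PM_at fell behind the brightest probe set by 0.22 and 1428967_PM_at by 0.16, without overlap of the groups (two-sided exact permutation test, p = 0.1 for each, and 0.171 when adjusted over the 12 pairs). The mean of the 4 was 5.36 ± 0.012 (SD, n = 3) with MA and 5.23 ± 0.03 (SD, n = 3) without, a 1.09-fold rise (difference 0.12, limma, adjusted p = 0.0019). No probe set of Igf1r passed a fold of 1.2.

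**Figure D2:**
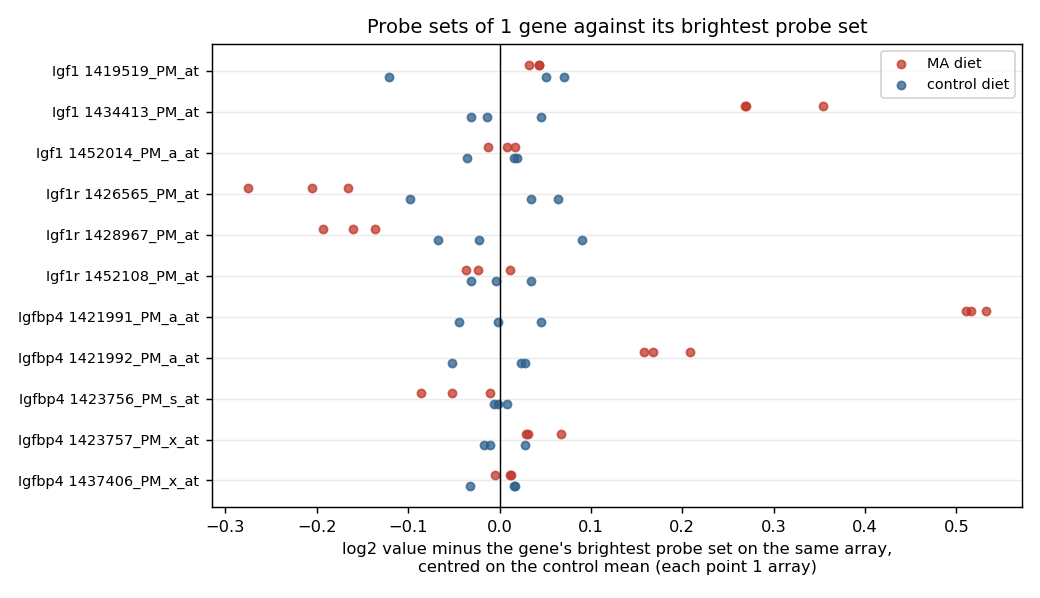
Log2 value of each probe set minus the brightest probe set of the same gene on the same array, centred on the control mean, for Igf1, Igf1r and Igfbp4 (1 point per array, red for the MA group, blue for the control group). The Igf1 probe set 1434413_PM_at stands 0.30 higher in the MA group relative to the brightest, and the Igfbp4 probe set 1421991_PM_a_at 0.52 higher, which means a smaller fall there.

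Igfbp4 encodes a small secreted binding protein that mostly restrains IGF action and that the protease pappalysin, the product of Pappa, cleaves. Its brightest probe set, 1437405_PM_a_at, had log2 values of 9.23, 9.23 and 9.25 in the MA group and 9.95, 9.96 and 9.97 in the control group. No MA array came near the control arrays, and the difference was -0.72 (standard error 0.02, 95% interval -0.77 to -0.67), a 1.65-fold fall (limma, adjusted p = 7.52e-08). Among all probe sets, 0.737% fell by as much or more.

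All 6 probe sets of Igfbp4 fell and none overlapped between the groups. Over all probe sets, 21.4% fell and 26.4% lay lower with MA without overlap. The fall was largest at 1423756_PM_s_at, with 7.67, 7.71 and 7.78 in the MA group and 8.47, 8.49 and 8.51 in the control group, a 1.70-fold fall (limma, adjusted p = 3.56e-07). Probe set 1437406_PM_x_at had 8.74, 8.74 and 8.77 against 9.42, 9.48 and 9.49, a difference of -0.71. Probe set 1423757_PM_x_at had 6.97 to 7.02 against 7.69, 7.66 and 7.66, a difference of -0.68. These 4 probe sets, which share 2 sequence records, thus gave falls of 1.60-fold to 1.70-fold.

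The 2 probe sets of the remaining record gave smaller falls. Probe set 1421992_PM_a_at had 6.52, 6.58 and 6.56 in the MA group and 7.11, 7.12 and 7.05 in the control group, a 1.45-fold fall (limma, adjusted p = 1.97e-06). Probe set 1421991_PM_a_at, the dimmest, had 5.24, 5.23 and 5.26 against 5.39, 5.44 and 5.50, a difference of -0.20 (limma, adjusted p = 0.000891) that is under 1.2-fold. Relative to the brightest probe set its fall was smaller by 0.52, without overlap (two-sided exact permutation test, p = 0.1, and 0.171 when adjusted over the 12 pairs). Averaged over the 6, Igfbp4 had 7.42 ± 0.021 (SD, n = 3) with MA and 8.02 ± 0.012 (SD, n = 3) without (difference -0.60, 95% interval -0.65 to -0.56, limma, adjusted p = 1.53e-07).

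Igfbp6 encodes a binding protein that prefers IGF-2 and is made by fibroblasts and tendon cells among others. Its only probe set, 1417933_PM_at, had 7.04, 7.11 and 7.02 in the MA group and 6.65, 6.53 and 6.60 in the control group. All MA arrays lay above all control arrays, and the rise was 0.46 (standard error 0.04, 95% interval 0.38 to 0.55), or 1.38-fold (limma, adjusted p = 2.52e-05). Among all probe sets, 1.59% rose by as much or more. Igfbp5 encodes the binding protein best known from myoblasts and matrix. It had 8.64, 8.68 and 8.66 against 8.45, 8.43 and 8.43, a 1.17-fold rise without overlap (difference 0.22, 95% interval 0.17 to 0.27, limma, adjusted p = 7.44e-05).

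The remaining binding proteins differed little. Igfbp3 encodes the main carrier of IGFs in serum and had 4.50, 4.52 and 4.52 in the MA group and 4.68, 4.62 and 4.70 in the control group, a 1.12-fold fall (difference -0.16, 95% interval -0.22 to -0.10, limma, adjusted p = 0.00173). Igfbp2, which carries IGFs in many tissues, had 8.35, 8.35 and 8.34 against 8.36, 8.37 and 8.36. Its difference of -0.02 (95% interval -0.07 to 0.03) did not pass the test (limma, adjusted p = 0.475), although the groups did not overlap, since both groups were very tight. The binding proteins thus moved in opposite directions, with Igfbp4 and Igfbp3 lower and Igfbp5 and Igfbp6 higher. Taken as the mean of its probe sets, 5 of the 8 genes rose and 2 fell, where 25.6% and 22.9% of all genes did so on that measure, 48.5% together.

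**Figure D3:**
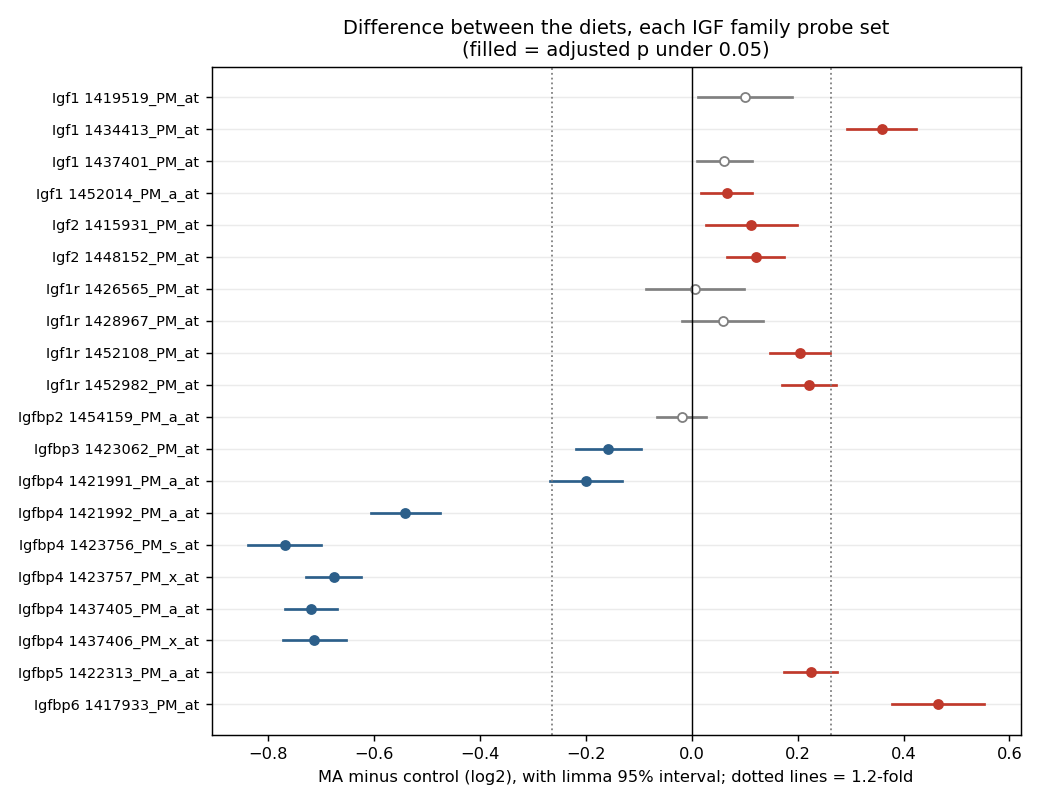
MA minus control (log2, horizontal axis) with its limma 95% interval for each IGF family probe set, filled red where it rose, filled blue where it fell and open where it did not pass the test, with dotted lines at 1.2-fold. The 5 probe sets beyond the left line are all of Igfbp4, and the 2 beyond the right line are Igf1 1434413_PM_at and Igfbp6.

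The promoters of the 3 genes with a probe set past 1.2-fold are shown to let their sequences be compared. Each is the 250 bases before the annotated start, from RefSeq on GRCm38.p6, plus strand, 5′ to 3′. Capitals mark matches to the motifs searched on both strands, which were the TATA box TATAAA, the STAT site TTCNNNGAA, the interferon-stimulated element (GAAA, any 2 bases, GAAA), the FoxO site GTAAACA and the E-box CAGCTG, and no match overlapped another in these windows.
Igfbp4, chr11:99040994-99041243: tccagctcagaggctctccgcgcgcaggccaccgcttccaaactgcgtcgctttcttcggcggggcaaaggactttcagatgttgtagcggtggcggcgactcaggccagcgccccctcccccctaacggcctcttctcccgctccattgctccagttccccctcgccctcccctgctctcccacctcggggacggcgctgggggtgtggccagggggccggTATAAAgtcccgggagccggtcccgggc
Igfbp6, chr15:102143936-102144185: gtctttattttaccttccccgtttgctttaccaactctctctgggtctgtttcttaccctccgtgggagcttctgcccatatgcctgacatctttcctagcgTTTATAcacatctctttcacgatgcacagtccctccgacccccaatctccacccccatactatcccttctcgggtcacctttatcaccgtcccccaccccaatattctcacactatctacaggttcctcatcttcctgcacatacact
Igf1, chr10:87860861-87861110: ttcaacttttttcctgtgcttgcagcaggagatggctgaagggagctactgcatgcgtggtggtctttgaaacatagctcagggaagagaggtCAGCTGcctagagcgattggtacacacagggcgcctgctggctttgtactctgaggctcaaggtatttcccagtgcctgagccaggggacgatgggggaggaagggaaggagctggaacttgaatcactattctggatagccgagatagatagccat

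Igfbp4, which fell, has TATAAA 28 to 23 bases before its start, the usual distance of a TATA box. Igfbp6, which rose, has it on the other strand 148 to 143 bases before the start, and Igf1 has a CAGCTG 157 to 152 bases before. Among the 32851 promoter windows of the genome of the same length, 12.4% hold TATAAA and 13% hold CAGCTG. The STAT, interferon and FoxO letters, which 7.02%, 2.98% and 3.17% of windows hold, are in 0 of the 12 windows of the 8 measured members. A match is only a run of letters, and no binding was measured.

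The other genes of the pathway went both ways. Of 56 listed, 49 were measured, each by its brightest probe set, and 15 rose and 17 fell, and the other 17 missed the threshold, where 24.7% of all genes rose and 23% fell, 47.8% in all. Past 1.2-fold 6 rose and 4 fell, where 5.92% and 6.87% of all genes did. The median difference of the list was 0.03 and that of all genes 0.006. On the ligand side, 6 of 12 rose and 1 fell. Htra1, a secreted protease that cleaves IGF-binding proteins, had 8.52, 8.55 and 8.58 in the MA group and 8.11, 8.15 and 8.16 in the control group, a 1.33-fold rise (limma, adjusted p = 4.53e-06). Adam12, a membrane protease that cleaves Igfbp3 and Igfbp5 proteins, had 5.89, 5.83 and 5.83 against 5.40, 5.43 and 5.44, a 1.35-fold rise, and its other probe set differed by -0.001, which gives 0.21 on their mean.

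The growth hormone receptor and the pappalysins were named after their values were seen. Ghr, the receptor through which growth hormone induces Igf1, rose by 0.15 at its brightest probe set (limma, adjusted p = 0.000654), with 0.13 to 0.36 over its 3 probe sets. Pappa, the protease of Igfbp4, stood near the background at 4.12 ± 0.012 (SD, n = 3) against 4.02 ± 0.016 (SD, n = 3) and rose by 0.10. Over its 3 probe sets the range was -0.05 to 0.10, and their mean differed by 0.008 (limma, adjusted p = 0.759). Pappa2, which cleaves Igfbp3 and Igfbp5 proteins, rose by 0.19 (limma, adjusted p = 0.0188), but the call was lost without MA array 2, MA array 3 or control array 3 (adjusted p = 0.0695, 0.0595 and 0.0573). Igfbp1, the binding protein of liver, lay at the background at 3.86 and 3.78, with adjusted p = 0.175 (limma).

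Below the receptor, 4 of 9 measured receptors and adaptors rose and 4 fell, where 24.7% and 23% of all genes did. Grb10, an adaptor that restrains the insulin and IGF-1 receptors, had 8.92, 8.97 and 8.96 in the MA group and 8.18, 8.19 and 8.20 in the control group. The arrays lay far apart, with a 1.69-fold rise (difference 0.76, limma, adjusted p = 8.14e-08) with 0.16 to 0.76 over its 3 probe sets and 0.40 on their mean. Irs1, the docking protein that links the receptor to PI3K, had 7.98, 7.99 and 7.99 against 7.52, 7.57 and 7.64, a 1.33-fold rise (limma, adjusted p = 1.8e-05). Shc1, the adaptor to the Ras pathway, fell by 0.38 at its brighter probe set (limma, adjusted p = 4.65e-06), differed by -0.07 at the other, and by -0.22 on their mean. Insr, the insulin receptor, rose by 0.11 at its brightest probe set, and the mean of its 3 probe sets differed by 0.02 (limma, adjusted p = 0.382).

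Of 11 genes of PI3K and AKT, 1 rose and 6 fell, where 24.7% of all genes rose and 23% fell, which also holds for the counts of mTOR, GSK3 and FoxO genes that follow. Pik3r3, a regulatory subunit of PI3K, had 7.55, 7.59 and 7.59 in the MA group and 8.34, 8.37 and 8.34 in the control group, a 1.71-fold fall without overlap (limma, adjusted p = 7.91e-08). Pik3r1, the main regulatory subunit, fell by 0.28 at the brightest and ranged from -0.28 to 0.06 over all 4 of them, with a mean of -0.15. The kinase Akt1 fell by 0.23 and Akt2, the isoform of insulin-responsive tissue, by 0.12 (limma, adjusted p = 7.17e-05 and 0.00155). Akt1 ranged from -0.23 to -0.13 over its 3 probe sets, with a mean of -0.17. The other probe set of Akt2 differed by 0.02, and the mean of both Akt2 probe sets was -0.05. Of 10 genes of mTOR and translation, 3 rose and 4 fell, none past 1.2-fold, and Mtor itself differed by 0.02 (95% interval -0.02 to 0.07, limma, adjusted p = 0.369). Of 5 genes of GSK3 and FoxO, 1 rose and 2 fell. Foxo4 fell by 0.28 at its brighter probe set and differed by 0.06 at the other, or -0.11 on their mean. Foxo3 fell by 0.12. Foxo1 was read from the only probe set that names it alone, which lay at the background at 3.85 and 3.87. That probe set does not tell if the gene is expressed or changed. Of the 2 measured mRNA-binding proteins of IGF-2, Igf2bp1 and Igf2bp3, neither passed the test. Irs2 was not analysed here.

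**Figure D4:**
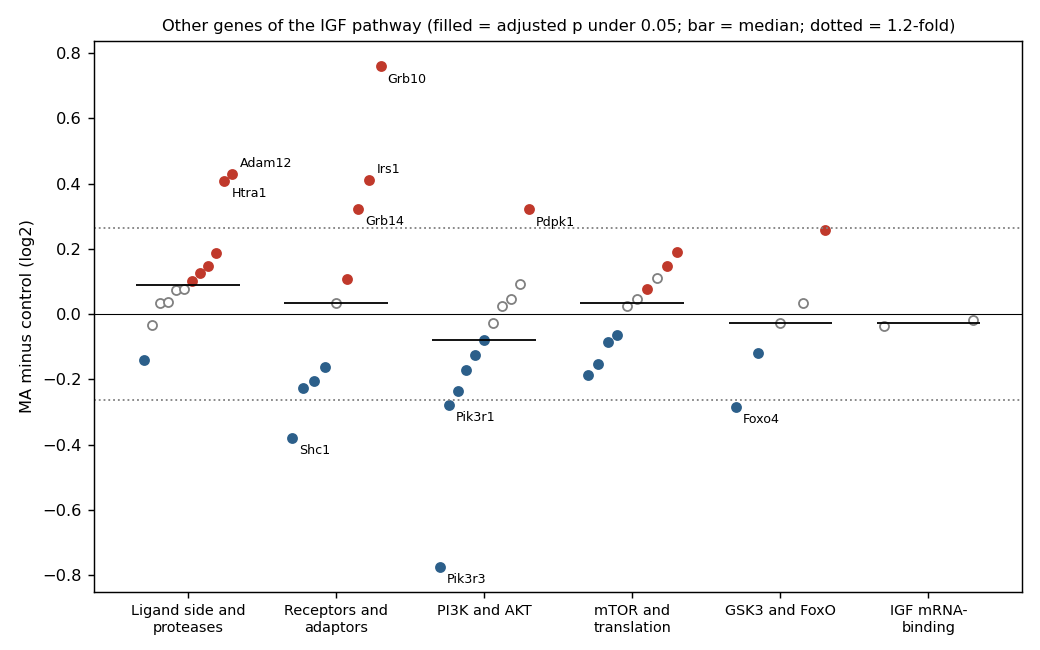
MA minus control (log2, vertical axis) of the 49 measured genes of the IGF pathway outside the family, 1 point per gene by its brightest probe set, filled where the adjusted p was under 0.05, with a bar at the median of each group of genes and dotted lines at 1.2-fold. Names mark the genes called past 1.2-fold, and Grb10 stands highest at 0.76 and Pik3r3 lowest at -0.77.

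Markers of several cell types that make or bind IGFs moved between the same arrays, and their part in the differences above was not tested. By their brightest probe sets 24.7% of all genes rose and 23% fell, 47.8% in all, against which each marker count can be read. Of 10 macrophage markers, 7 fell and 0 rose, with log2 summed levels of 10.74 to 10.78 in the MA group and 11.46 to 11.49 in the control group. The brightest, Lyz2 and C1qa, fell by 0.69 and 1.04, while Itgam was at the background. Of 8 endothelial markers 7 fell, with summed levels of 8.19 to 8.22 against 8.37 to 8.44, and the brightest, Esam and Kdr, fell by 0.25 and 0.16.

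Markers of tendon, and some of those of fibroblasts, moved the other way. All 6 tenocyte markers rose, where 24.7% of all genes did, with summed levels of 10.55 to 10.58 in the MA group and 9.29 to 9.32 in the control group, and the brightest, Thbs4 and Fmod, rose by 1.64 and 0.61. Of 7 markers of fibroblasts and their progenitors, 4 rose and 0 fell, with summed levels of 11.43 to 11.44 against 11.355 to 11.364. Dcn, the brightest, differed by -0.04 (limma, adjusted p = 0.128), and Lum rose by 0.64. Of 8 fiber markers 4 rose and 0 fell, with summed levels of 15.36 against 15.29. Tnnc2, the brightest, differed by 0.02 (limma, adjusted p = 0.371), and Acta1 rose by 0.13.

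Of 7 markers of satellite cells and myoblasts, 2 rose and 5 fell, with summed levels of 10.87 to 10.92 against 11.05 to 11.09, and the brightest, Myog and Myod1, fell by 0.16 and 0.46. Of 4 measured markers of pericytes and smooth muscle 3 fell, with summed levels of 10.03 to 10.06 against 10.52 to 10.54, led by Rgs5 at -0.59 and Acta2 at -0.22. Of 4 Schwann cell markers 2 rose and 2 fell, with summed levels of 7.13 to 7.16 against 7.34 to 7.38, and Mbp and Ngfr differed by -0.49 and 0.18. Of 3 adipocyte markers 2 rose and 1 fell, with summed levels of 11.06 to 11.08 against 11.23 to 11.26, and Fabp4 and Adipoq differed by -0.22 and 0.64. At the background in both groups were Itgam, Dpp4, Tie1, Mkx, S100b and Lep.

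**Figure D5:**
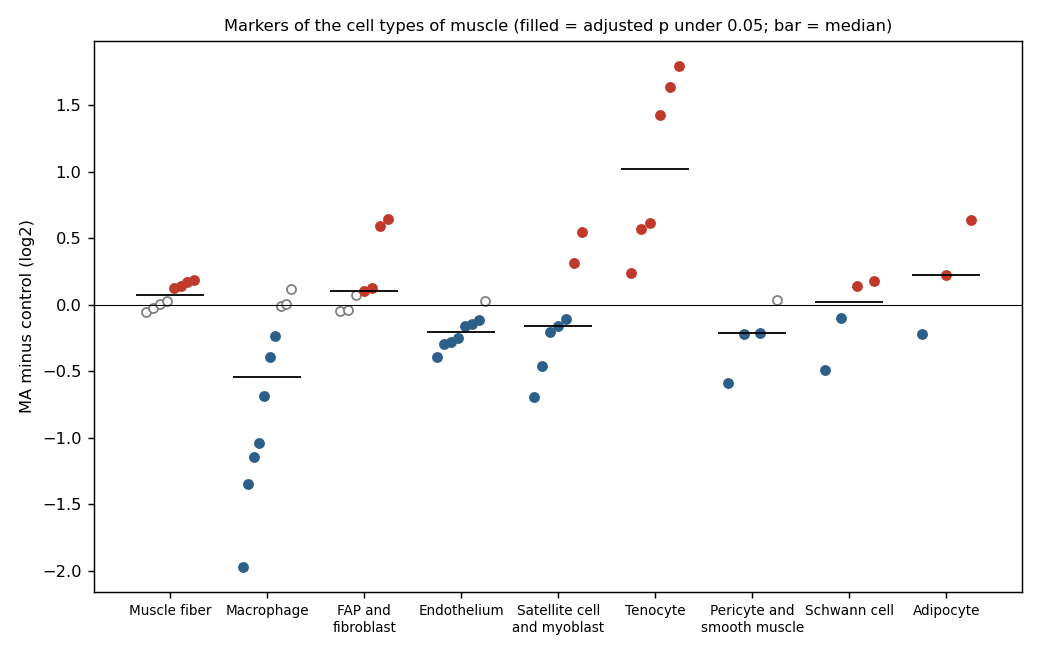
MA minus control (log2, vertical axis) of markers of 9 cell types of muscle, 1 point per gene by its brightest probe set, filled where the adjusted p was under 0.05, with a bar at the median of each list. The median was -0.54 for macrophage, -0.21 for endothelial and 1.02 for tenocyte markers.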

How the data were processed

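RNA of gastrocnemius muscle was measured on 6 Affymetrix mouse arrays, 3 per group. Per the labels and the methods, the authors prepared labelled RNA by in vitro transcription and summarised the scans by RMA (Expression Console, version not given in the sources used here), so the deposited values are background-corrected, quantile-normalized log2 values per probe set. The design text speaks of a human array, while the probe sets carry mouse array names. Which arrays shared a strip is not given in the sources used here. The values were used without further normalization.

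Groups and replicate numbers were taken from the sample titles. Of 45141 probe sets, 104 array controls were set aside, and each of the other 45037 was fitted with lmFit and eBayes (R 4.3.3, limma 3.58.1), without trend or covariate, with Benjamini-Hochberg adjustment over all of them. Genes were named from GEO's platform annotation, in which 28898 probe sets name 1 gene, 551 several and 15588 none. A pathway gene or marker is given by its brightest probe set. Means of a gene's probe sets were fitted apart in the same way, with adjustment over 17097 genes. Summed levels are log2 of the sum of the unlogged values of a list. Intervals are those of limma. The control for nonspecific binding with the highest GC content was left out of the background because it stood at 7.11 to 7.33, a choice made after seeing the data. The number of arrays limits the precision. Every member is described, and of the pathway genes the rule took the 4 largest rises and 4 largest falls past 1.2-fold, plus Igfbp1, Insr, Irs1, Irs2, Akt1, Akt2, Mtor, Foxo1 and Foxo3, and of each marker list its 2 brightest. Other genes named were chosen after their values were seen, and the members and lists were chosen with earlier results of these data known. The steps were tested on simulated data.

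Other settings tried were the methods' one-way test, thresholds on fold, eBayes with a trend or robust moderation, quantile normalization again, median centring, a filter on dim probe sets, array weights, a replicate block, the mean of a gene's probe sets, and omission of single arrays. A fold threshold at the hybridization controls' maximum was chosen after seeing the data.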

Additional observations from a re-analysis of the deposited data

How the results depend on the processing

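The calls of Igfbp4 (all 6 probe sets), Igfbp3, Igfbp5, Igfbp6, Igf1 1434413_PM_at, Igf2 1448152_PM_at and of both called probe sets of Igf1r kept their direction and passed adjusted p under 0.05 in every alternative that did not also require a fold. With a fold over 1.2, whether by limma or by the one-way test of the methods, 2053 probe sets were higher and 2580 lower, of the members 2 were higher and 5 lower, of the pathway genes 6 and 4, and of the members by gene mean 1 and 1. With a fold over the largest hybridization control these were 1255 and 1511, 2 and 5, 4 and 2, and 1 and 1. Counted by gene mean, 5 members were higher and 2 lower. Igfbp2 passed with the one-way test after Benjamini-Hochberg (adjusted p = 0.0223). The brightest probe set of Igf1 passed in 5 of 18 alternatives, with adjusted p between 0.0195 and 0.174 over all of them, and 1419519_PM_at in 2. Igf1r 1428967_PM_at passed without control array 3 (adjusted p = 0.0349). The call of Igf1 1452014_PM_a_at was also lost with an eBayes trend. No probe set or gene whose own difference turned direction was called. Values relative to a brightest probe set could not be called, since their exact permutation p cannot go under 0.1. Mtor was -0.041 when its probe sets were averaged. When each array was left out in turn, Igf1r 1426565_PM_at ranged from -0.036 to 0.040 and Foxo1 from -0.060 to 0.0017. Relative to the brightest probe set, Igf1 1419519_PM_at ranged from -0.021 to 0.075, Igf1 1452014_PM_a_at from -0.013 to 0.014, Igf2 1415931_PM_at from -0.050 to 0.045, Igf1r 1452108_PM_at from -0.032 to 0.00076 and Igfbp4 1437406_PM_x_at from -0.010 to 0.014. The cause was not tested. Leaving out 1 array gave 6 to 8 member probe sets higher and 7 lower. Of all probe sets it gave 7788 to 9530 higher and 7838 to 9858 lower.

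The replicate numbers are shared between the groups, but samples with the same number deviated together with r = 0.19, 0.04 and 0.14, so they were not taken as pairs, and 4 of 6 arrays correlated best with their own number. With the replicate number as a block, 7 member probe sets were higher and 7 lower, 9928 and 9916 of all probe sets and 17 and 16 of the pathway genes, and the call of Igf1 1452014_PM_a_at was lost.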
